A study of Mus musculus with 17 samples.

Results

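AOM/DSS-induced colorectal tumors of mice with a germline deletion of Tyk2 were compared with tumors of wild-type mice, with emphasis on the genes that lie outside the interferon response and antigen presentation. The libraries were chosen by their genotype label alone, which gave 3 libraries labelled Tyk2KO and 3 labelled Tyk2wt, 6 of the 17 libraries of the series. The remaining 11 libraries came from mice that lacked Tyk2 only in intestinal epithelial cells through Villin-cre (Tyk2DIEC, 4 libraries) and from floxed controls without that deletion (Tyk2fl, 7 libraries), and they were used here only to set the germline changes beside those of the epithelial deletion. Per the methods of the study, the Tyk2KO allele (Tyk2Δ) arose from a floxed allele through a CMV-cre germline deleter that was then crossed out, and heterozygous mice were intercrossed to give Tyk2Δ/Δ and Tyk2+/+ animals. Tyk2 was thus missing from the tumor cells and from every cell of the host at once, so that the cell type in which its loss acts cannot be told apart in these libraries. All 6 tumor samples carried the same treatment, the mutagen azoxymethane (AOM) followed by dextran sulfate sodium (DSS), which injures the colon epithelium and drives colitis-associated tumors, and per the study's methods all mice were on a C57BL/6 background. The labels give no age or sex for the animals and speak of single excised tumors, whereas the study's legend for qPCR of such tumors speaks of pooled tumor samples, so the number of animals behind a library is not known.

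Tyk2 is a Janus kinase that sits on the cytoplasmic tails of the receptors for type I interferons, interleukin-12, interleukin-23 and members of the interleukin-10 family. Ligand binding lets it phosphorylate Stat transcription factors, which move into the nucleus and activate target genes through an interferon-stimulated response element (ISRE) or a gamma interferon-activated sequence (GAS). In the intestine these pathways act on lymphocytes and myeloid cells as well as on the epithelium, which is why genes of many cell types were examined beside the interferon targets.

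Total counts ranged from 19789347 to 21318077 in Tyk2wt and from 19922606 to 21707373 in Tyk2KO, so that read counts of the 6 libraries can be set side by side almost directly. Epithelial marker transcripts (18 tested, among them keratins and cadherins) summed to between 13309 and 15871 CPM (reads of a gene per 1000000 reads of the library) in Tyk2wt and between 14342 and 15262 CPM in Tyk2KO, and 0 of them were called by edgeR or DESeq2 (3 had an unadjusted edgeR p under 0.05). Fat cell transcripts were scarce, and the defining marker Adipoq was at 0 in all 6 libraries. Y-linked transcripts were present in all 6 libraries, and Xist, the female-specific RNA that silences an X chromosome, had 3 to 18 counts. The share of mitochondrial transcripts was 2.08% to 2.56% in Tyk2wt and 2.06% to 2.49% in Tyk2KO.

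Tyk2 itself (ENSMUSG00000032175.11, GRCm38 chr9:21104068-21131243, minus strand) had 1158, 1092 and 1199 counts in Tyk2wt and 1256, 1177 and 1257 in Tyk2KO. The level was 56.3 ± 1.03 CPM (SD, n = 3) against 58.2 ± 0.620 CPM (SD, n = 3), with a log2 fold change of 0.05 (SE 0.05, adjusted p = 0.645). The counts cover the whole gene, including exons that the deletion leaves in place, so this value does not check the genotype labels. Of the 25 tested cytokines, receptors and kinases that couple to Tyk2, 0 were called by edgeR or DESeq2 (7 had an unadjusted edgeR p under 0.05), and their median log2 fold change was -0.02.

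Differences were tested with edgeR's quasi-likelihood method, p-values were adjusted by Benjamini-Hochberg over all 16179 genes tested, and a gene was called when its adjusted p was under 0.05 and its change over 2-fold, which 1.21% of all genes met as lower, 0.0927% as higher and 1.3% in either direction. At an unadjusted p under 0.05, 2112 of the 16179 genes were lower and 1569 higher, which is the background for counts by unadjusted p in this comparison. Of the 354 tested genes of 4 interferon and MHC lists, 118 (33.3%) were called lower. Outside those lists 15825 genes were tested, of which 77 (0.487%) were called lower and 15 (0.0948%) higher. The lists need not be complete, so a gene outside them can still be an interferon target. The genes called outside the lists included lymphocyte, smooth muscle and gut hormone genes on the lower side, and Hoxb genes, an endothelial receptor and a set of non-coding RNAs on the higher side. For all 92 the values of the genotypes did not overlap, as was true of 28.5% of all genes tested.

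The calls outside the lists depended on single libraries. Without Tyk2wt replicate 3, 13 genes were called lower outside the lists in place of 77, and without Tyk2KO replicate 2 there were 10. The count was 29 without Tyk2KO replicate 1, 59 without Tyk2KO replicate 3, 67 without Tyk2wt replicate 1 and 110 without Tyk2wt replicate 2. 6 of the 77 were called in all 6 reduced fits, namely Dpt, Fosb, Dsg4, Olfr56, 9330175E14Rik and 2210407C18Rik, and 7 were called in none. Of the 118 lower genes within the interferon and MHC lists, 72 were called in all 6 reduced fits. Of the 15 higher genes, 3 were called in all 6 (Gm42031, Cbx3-ps2 and AC158975.2), and the count of higher genes was 9, 10 and 8 without Tyk2wt replicates 1, 2 and 3 and 22, 12 and 6 without Tyk2KO replicates 1, 2 and 3.

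**Figure D1:**
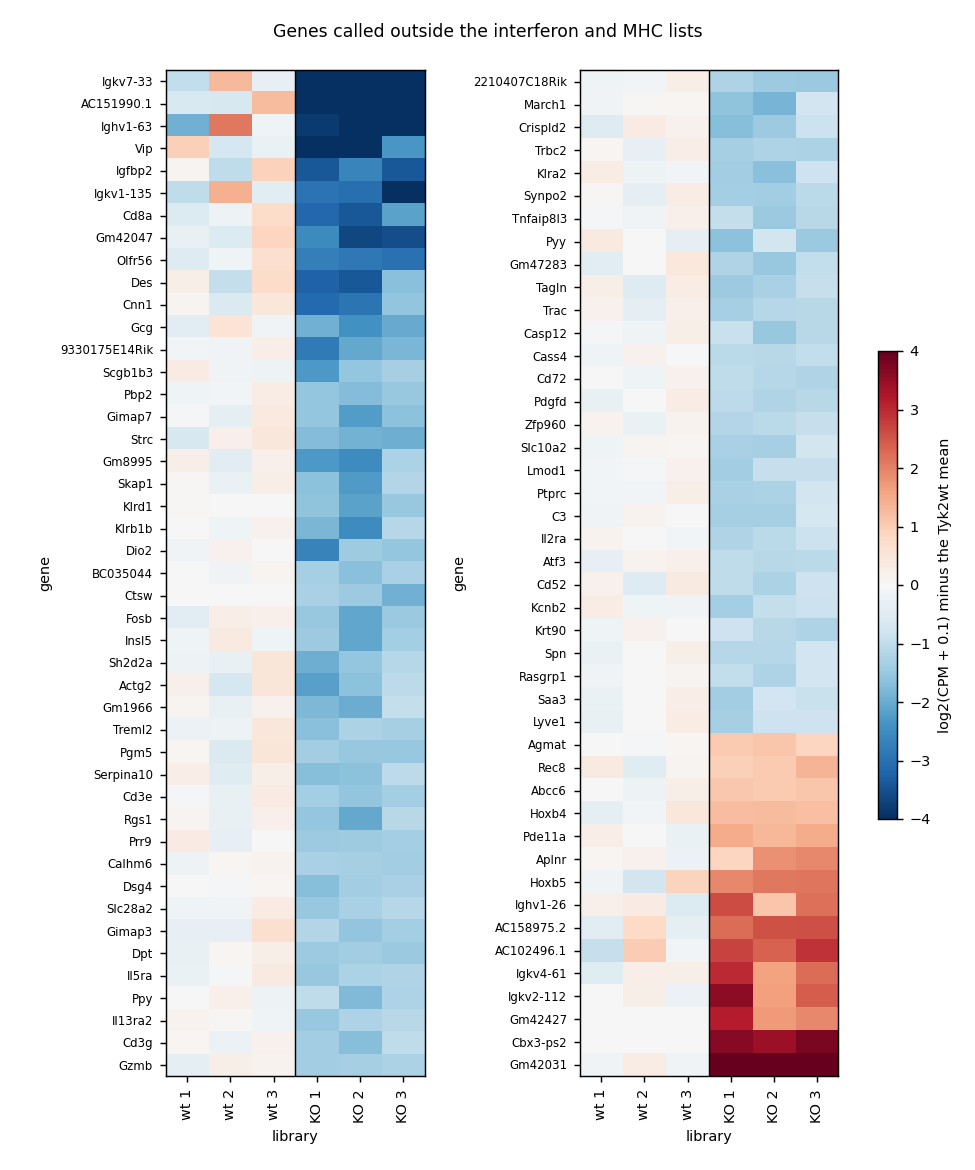
Heat map of 89 of the 92 genes called outside the interferon and MHC lists (rows, sorted by log2 fold change) in the 3 Tyk2wt and 3 Tyk2KO libraries (columns). Color is log2(CPM + 0.1) minus the mean of the Tyk2wt libraries, with values beyond 4 in either direction drawn in the darkest shade, and every row changes side at the line between the genotypes because the genes were chosen for it.

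Some of the genes outside the lists lay on or beside interferon genes. Olfr56, annotated as an olfactory receptor gene, had 123, 148 and 287 counts in Tyk2wt and 26, 22 and 21 in Tyk2KO. It was 9.08 ± 4.14 CPM against 1.09 ± 0.108 CPM (SD, n = 3 each), a log2 fold change of -3.05 (SE 0.35, adjusted p = 0.00531), and it was called in every reduced fit. Its annotated span (chr11:48978889-49135387, plus strand) contains Ifi47 on the same strand and Tgtp1 and Tgtp2 on the opposite strand. These are interferon-induced GTPase genes with log2 fold changes of -2.41, -3.89 and -3.59. Which gene the reads counted for Olfr56 came from was not tested. The library kit keeps strand, but which strand setting the deposited counts used is not given in the sources used here.

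9330175E14Rik, a non-coding transcript, overlaps the start of Nlrc5 on the opposite strand of chromosome 8, Nlrc5 being the transactivator of MHC class I genes. It had 69, 63 and 89 counts in Tyk2wt and 9, 16 and 20 in Tyk2KO (log2 fold change -2.33, SE 0.30, adjusted p = 0.00982), beside a log2 fold change of -3.38 for Nlrc5. Casp12, an inflammatory caspase, lies 8647 bases from Casp4, which is on the type I interferon list. Casp12 had 688, 588 and 831 counts in Tyk2wt and 397, 241 and 337 in Tyk2KO (log2 fold change -1.16, SE 0.17, adjusted p = 0.0147, or 0.0584 without Tyk2wt replicate 3), against -1.41 for Casp4. AC151990.1, a processed pseudogene 13361 bases from the interferon-induced GTPase gene Iigp1, had 40, 37 and 154 counts in Tyk2wt and 0, 1 and 0 in Tyk2KO (adjusted p = 0.0147, or up to 0.0986 without Tyk2KO replicate 1 or 2). The groups were apart for all 4 genes. Around the deleted locus itself, 1 of 110 tested genes within 10 Mb of Tyk2 was called, the smooth muscle gene Cnn1, and 4 of 188 within 20 Mb, namely Cnn1, Casp4, Casp12 and Pdgfd, beside 1.3% of all genes.

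Promoter sequence was compared between genes called within and outside the lists. The lists hold known interferon and MHC genes, so the ISRE share within them is no independent check of that division. RefSeq windows of 250 bases before to 50 bases after the start (GRCm38.p6) were present for 11681 genes tested, and 445 of those (3.81%) held the ISRE letters, TTTC and a further TTTC with any 2 bases between them, on either strand. The share was 47.1% (40 of 85) for genes called lower within the interferon and MHC lists and 6.12% (3 of 49) for genes called lower outside them, Calhm6, Saa3 and Gm1966. The window of Gm1966 (chr7:106644596-106644895) lies far upstream of the span counted here (chr7:106596743-106604035, minus strand), so its match is not at the start of that span. The GAS letters TTCNNNGAA, which read the same on both strands, were found in 978 genes (8.37%) of all tested with a window, in 15.3% (13 of 85) within the lists and in 18.4% (9 of 49) outside them, namely Casp12, Dpt, Gimap3, Gimap7, Gzmb, Klra2, Prr9, Rasgrp1 and Slc28a2. These are matches of letters and no binding was measured. The windows of the ISRE-bearing Calhm6 and Saa3, and of 3 GAS-bearing genes with different known roles (Casp12 with a pair of matches, the matrix gene Dpt and the cytotoxic gene Gzmb), are printed with the matched letters in capitals, 5′ to 3′ along the gene's strand.
Calhm6, chr10:34127923-34128222 (minus strand): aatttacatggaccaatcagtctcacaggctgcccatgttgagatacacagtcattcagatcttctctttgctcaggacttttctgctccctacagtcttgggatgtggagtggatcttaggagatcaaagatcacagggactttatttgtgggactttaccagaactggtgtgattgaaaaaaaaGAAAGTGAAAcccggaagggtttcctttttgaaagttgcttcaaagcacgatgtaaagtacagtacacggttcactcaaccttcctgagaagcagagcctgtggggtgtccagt
Saa3, chr7:46715627-46715926 (minus strand): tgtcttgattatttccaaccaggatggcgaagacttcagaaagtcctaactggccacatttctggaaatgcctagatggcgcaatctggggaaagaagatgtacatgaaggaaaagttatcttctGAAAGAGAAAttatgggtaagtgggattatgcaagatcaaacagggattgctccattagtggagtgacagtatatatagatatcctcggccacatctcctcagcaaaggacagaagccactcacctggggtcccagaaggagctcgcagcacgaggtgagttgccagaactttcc
Casp12, chr9:5345226-5345525 (plus strand): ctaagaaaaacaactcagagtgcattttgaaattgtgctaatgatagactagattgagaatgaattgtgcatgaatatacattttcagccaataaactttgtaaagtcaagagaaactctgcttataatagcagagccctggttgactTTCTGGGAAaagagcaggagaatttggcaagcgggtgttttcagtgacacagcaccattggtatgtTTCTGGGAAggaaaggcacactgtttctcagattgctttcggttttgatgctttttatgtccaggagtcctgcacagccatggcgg
Dpt, chr1:164796413-164796712 (plus strand): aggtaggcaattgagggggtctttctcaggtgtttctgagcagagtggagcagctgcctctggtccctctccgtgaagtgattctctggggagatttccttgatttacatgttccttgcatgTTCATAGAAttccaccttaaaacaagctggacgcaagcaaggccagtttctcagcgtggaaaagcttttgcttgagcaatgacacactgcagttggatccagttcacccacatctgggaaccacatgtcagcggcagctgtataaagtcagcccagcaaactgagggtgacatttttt
Gzmb, chr14:56262285-56262584 (minus strand): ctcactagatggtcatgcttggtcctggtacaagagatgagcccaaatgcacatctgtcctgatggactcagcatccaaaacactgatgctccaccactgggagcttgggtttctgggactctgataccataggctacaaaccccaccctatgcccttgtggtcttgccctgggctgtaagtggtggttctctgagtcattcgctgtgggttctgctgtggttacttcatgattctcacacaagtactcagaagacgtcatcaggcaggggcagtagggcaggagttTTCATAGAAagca

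Calhm6, of the calcium homeostasis modulator family of membrane channels, had 25, 29 and 32 counts in Tyk2wt and 11, 10 and 10 in Tyk2KO (log2 fold change -1.51, SE 0.26, adjusted p = 0.0256), and its match began 64 bases before the annotated start. Saa3, an acute-phase serum amyloid A protein of the inflamed gut, had 1779, 2069 and 2578 counts in Tyk2wt and 856, 1254 and 1195 in Tyk2KO (log2 fold change -1.005, SE 0.18, adjusted p = 0.0311). Both were lower in every Tyk2KO library than in any Tyk2wt library. Their place outside the lists does not show that they are no interferon targets, which was not tested. Both calls ended without Tyk2wt replicate 3 or any of the 3 Tyk2KO replicates, with adjusted p-values of up to 0.125 for Calhm6 and 0.112 for Saa3, and that of Saa3 also without Tyk2wt replicate 2.

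Beyond single genes, 52 lists of cell type markers and programs outside the interferon response were examined by the count of called members and the median log2 fold change, which was 0.00 over all genes tested. The lists with the lowest medians were those of cytotoxic lymphocytes (-1.65), B cells (-1.14), T cells (-1.07) and immunoglobulin constant genes (-0.97), and the Hoxb genes had the highest (1.24). The lists of colonocytes, goblet cells, general epithelial markers, Wnt targets and proliferation had 0 members called by edgeR or DESeq2. In bulk tumor RNA, fewer cells of a type and less RNA per cell cannot be told apart.

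**Figure D2:**
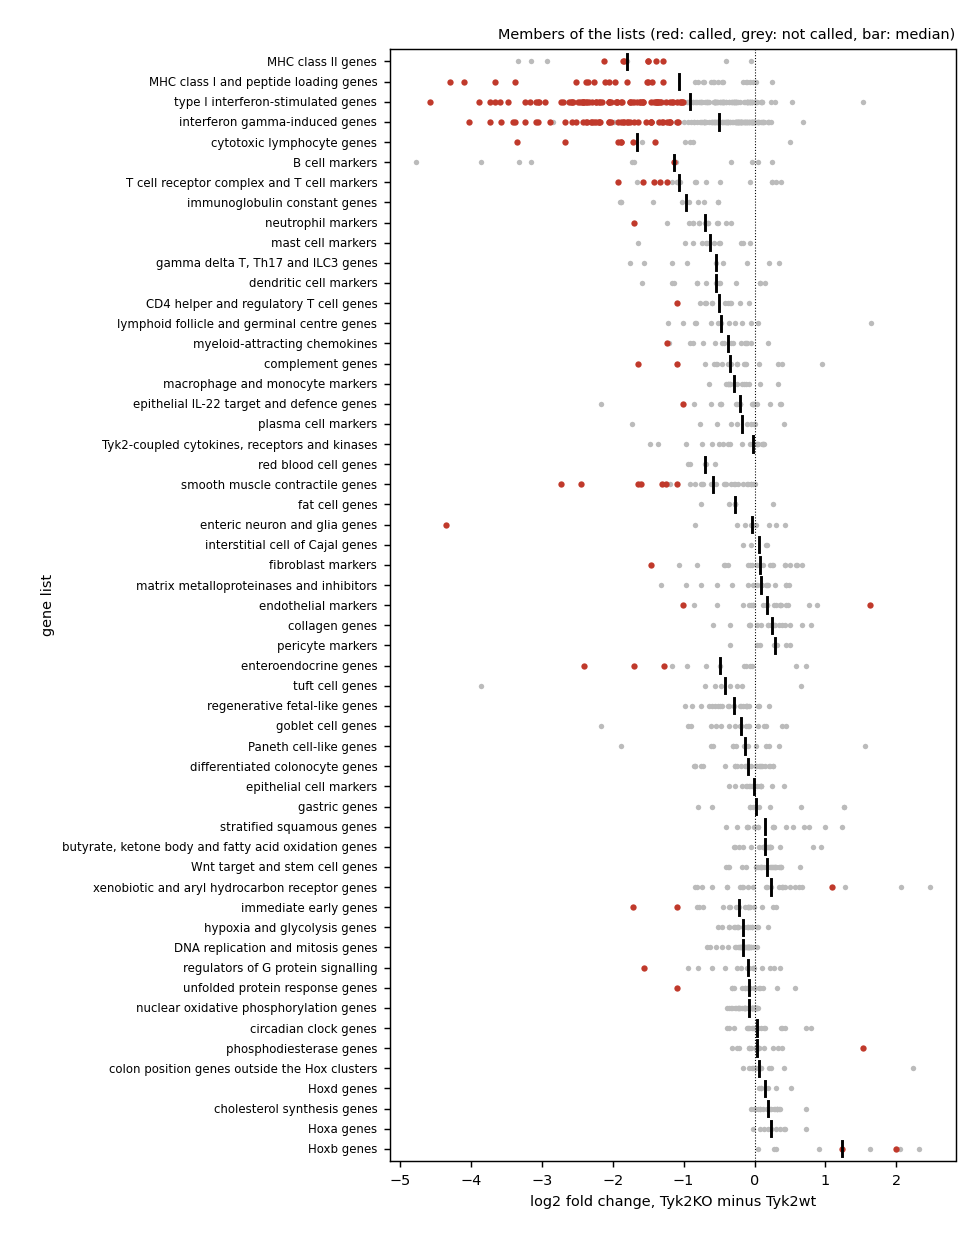
Log2 fold change, Tyk2KO minus Tyk2wt (horizontal axis), of every tested member of each gene list (vertical axis). Red points were called, grey points were not, and the black bar is the list's median. Interferon and MHC lists stand at the top, and cytotoxic lymphocyte genes (median -1.65) and Hoxb genes (median 1.24) lie farthest from 0 among the other lists.

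Genes of cytotoxic lymphocytes were lower in Tyk2KO tumors. Of 12 tested, 7 were called lower and 0 higher, and their summed level was 18.8 to 27.4 CPM in Tyk2wt and 7.65 to 8.57 CPM in Tyk2KO. Of the 7, 4 lay outside the interferon and MHC lists, and the others are on the interferon gamma list. Only 12 of the 27 listed genes passed the filter on low counts. Cd8a, Klrd1 and Ctsw passed it only through their Tyk2wt counts, so the 7 of 12 and the median of -1.65 are descriptions. Cd8a, the coreceptor of killer T cells, had 28, 34 and 70 counts in Tyk2wt and 3, 2 and 8 in Tyk2KO. Its level was 2.15 ± 1.07 CPM against 0.204 ± 0.149 CPM (SD, n = 3 each), a log2 fold change of -3.35 (SE 0.55, adjusted p = 0.0231). Klrd1, the CD94 receptor of natural killer cells, had 44, 40 and 42 counts against 13, 8 and 14 (log2 fold change -1.89, SE 0.26, adjusted p = 0.0124). Ctsw, a cathepsin of cytotoxic cells, had 32, 30 and 31 counts against 12, 10 and 7 (log2 fold change -1.72, SE 0.27, adjusted p = 0.0218), and the granule protease gene Gzmb had 56, 81 and 81 against 28, 27 and 30. For these 4 genes the groups were apart. Ccl5, a chemokine of activated T cells that is also on the interferon gamma list, had 33, 38 and 55 counts against 13, 11 and 10 (log2 fold change -1.93, adjusted p = 0.0175). Further cytotoxic genes were too low to be tested: Prf1, the pore-forming perforin, had 9, 10 and 20 counts against 1, 1 and 1, Nkg7 had 9, 25 and 20 against 2, 3 and 3, and Ifng, the gene of interferon gamma, had 5, 5 and 6 against 0, 0 and 1. Each of these was lower in every Tyk2KO library than in any Tyk2wt library. Of the 7 calls, 7, 5 and 1 were kept without Tyk2wt replicates 1, 2 and 3, and 2, 0 and 2 without Tyk2KO replicates 1, 2 and 3.

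The T cell receptor complex followed the same direction with smaller changes. Of 20 tested T cell genes, 5 were called lower: Cd3e, Cd3g, Trac, Trbc2 and Skap1. Trac, the constant segment of the receptor's alpha chain, had 203, 131 and 207 counts in Tyk2wt and 73, 79 and 85 in Tyk2KO (8.79 ± 1.81 against 3.74 ± 0.329 CPM, SD, n = 3 each; log2 fold change -1.23, SE 0.19, adjusted p = 0.0194). Cd3e, a signalling chain of the receptor, had 39, 31 and 52 against 15, 12 and 15 (log2 fold change -1.58, SE 0.27, adjusted p = 0.0265). Every Tyk2KO library was below every Tyk2wt library for both genes. Of the 5 calls, 3, 5 and 0 were kept without Tyk2wt replicates 1, 2 and 3, and 0, 0 and 2 without Tyk2KO replicates 1, 2 and 3. The summed level of the list overlapped between the genotypes (241 to 259 CPM in Tyk2wt, 254 to 278 CPM in Tyk2KO), and 4 of the 20 genes had a log2 fold change above 0.

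Among helper and regulatory T cell genes, 1 of 12 was called, Il2ra, the high-affinity interleukin-2 receptor chain, with 76, 64 and 64 counts in Tyk2wt and 30, 31 and 38 in Tyk2KO (log2 fold change -1.09, SE 0.20, adjusted p = 0.0346, up to 0.142 without 1 library). All 12 had a log2 fold change below 0, with a median of -0.51. Cd4 had 71, 82 and 88 counts against 65, 56 and 75, which overlapped between the genotypes, and Foxp3, the defining factor of regulatory T cells, had 25, 31 and 36 against 20, 13 and 30, which overlapped as well. Ptprc, the pan-leukocyte phosphatase CD45, had 765, 722 and 974 counts against 347, 339 and 504 (log2 fold change -1.10, SE 0.17, adjusted p = 0.0172, or up to 0.0848 without Tyk2wt replicate 3 or Tyk2KO replicate 1 or 2). Other called lymphocyte genes were Sh2d2a, a T cell adaptor, with 37, 33 and 62 counts against 10, 13 and 19, Rgs1, which dampens chemokine receptor signals in lymphocytes, with 177, 124 and 189 against 57, 37 and 77, and Klrb1b, an inhibitory receptor of natural killer cells, with 56, 46 and 64 against 15, 8 and 25. Their log2 fold changes were -1.69, -1.57 and -1.83, and each of these 3 calls ended without Tyk2wt replicate 1 or 3 and without Tyk2KO replicate 1 or 2, with adjusted p-values of up to 0.172, 0.0995 and 0.143.

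Of the B cell genes, 9 of 13 tested were lower in Tyk2KO without overlap between the genotypes and 1 was higher, against 14.4% and 14.1% of all genes. Only 13 of the 24 listed genes passed the filter on low counts. Pax5 passed it only through its Tyk2wt counts, so the 9 of 13 and the median of -1.14 are descriptions. Some B cell genes stood out in 1 Tyk2wt library. Pax5, the transcription factor that maintains B cell identity, had 28, 10 and 160 counts in Tyk2wt and 5, 2 and 0 in Tyk2KO, and its log2 fold change of -4.78 (SE 1.24) was not called (adjusted p = 0.0834). Ms4a1, which encodes CD20, had 37, 3 and 278 counts against 2, 1 and 0, and Cr2, a complement receptor of follicular cells, had 21, 6 and 174 against 1, 2 and 2, and both did not pass the filter on low counts. Tyk2wt replicate 3 stood far above the other Tyk2wt libraries for these 3 genes, and Tyk2wt replicate 2 was at 3 to 10 counts. Spib, a transcription factor of B cells and of specialised epithelium, had 24, 187 and 281 counts against 10, 7 and 18 and was not called (adjusted p = 0.0569). Of 13 tested B cell genes, 1 was called, Cd72, an inhibitory B cell receptor that other leukocytes also carry, with 190, 158 and 211 counts against 96, 83 and 83 (log2 fold change -1.14, SE 0.15, adjusted p = 0.00935, or 0.0516 without Tyk2KO replicate 2). The summed B cell level was 255 to 331 CPM in Tyk2wt and 250.1 to 284 CPM in Tyk2KO, and by DESeq2 8 of the 13 were called lower. The part of this library's B cell content in the other calls was not tested.

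Immunoglobulin transcripts were led by different variable segments in the genotypes. Immunoglobulin genes together took 0.113% to 0.184% of the counts in Tyk2wt and 0.0495% to 0.156% in Tyk2KO, which overlapped. Of 84 tested variable segments, 3 were called lower and 3 higher. Ighv1-26, a heavy chain segment, had 34, 35 and 19 counts in Tyk2wt and 195, 63 and 145 in Tyk2KO (log2 fold change 2.12, SE 0.42, adjusted p = 0.0419), and it was the leading heavy chain segment in all 3 Tyk2KO libraries, with 9.57%, 12.3% and 12.01% of heavy chain variable counts. Among the Tyk2wt libraries, replicate 1 was led by Ighv5-12 and Ighv1-75 together (5.34% each) and replicates 2 and 3 by Ighv1-63 (26.8% and 10.9%). Igkv1-135, a kappa light chain segment, led in all 3 Tyk2wt libraries with 185, 957 and 279 counts (9.92%, 31.0% and 14.8% of kappa variable counts) against 48, 44 and 15 in Tyk2KO, where Igkv1-117 led with 8.40%, 8.86% and 9.97%. Each of the 6 calls ended in at least 4 of the 6 reduced fits, with adjusted p up to 0.178. Reads of near-identical segments can be hard to place, so the counts of single segments are uncertain. The labels do not say whether the libraries of a genotype came from separate animals.

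Of the macrophage, neutrophil, mast cell and dendritic cell genes tested, 1 was called. Of 15 macrophage and monocyte markers 0 were called by edgeR or DESeq2 (6 had an unadjusted edgeR p under 0.05, median log2 fold change -0.30). All 15 neutrophil genes had a log2 fold change below 0 (median -0.69), their summed level was 272 to 326 CPM in Tyk2wt and 156 to 191 CPM in Tyk2KO, and 13 of 15 did not overlap, against 14.4% of all genes lower without overlap. Only 1 of the 15 was called, Acod1, which makes itaconate in activated myeloid cells and is also an interferon gamma target, with 254, 211 and 280 counts against 75, 74 and 88 (log2 fold change -1.70, SE 0.15, adjusted p = 0.00177). Red blood cell genes moved by a similar amount: Hbb-bs, an adult beta globin, had 507, 466 and 651 counts against 279, 250 and 369 (log2 fold change -0.90, SE 0.16, adjusted p = 0.0302), and all 5 tested had a log2 fold change below 0 with a summed level of 43.5 to 51.2 CPM in Tyk2wt and 22.6 to 32.2 CPM in Tyk2KO. The part of blood content in the neutrophil values was not tested. Mast cell genes (12 tested, median -0.62) and dendritic cell genes (13 tested, median -0.54) had 0 calls by edgeR (5 and 7 had an unadjusted p under 0.05), and 1 and 0 by DESeq2.

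Complement and chemokine genes were mostly uncalled. Ccl7, a monocyte-attracting chemokine also listed as an interferon gamma target, had 167, 208 and 172 counts in Tyk2wt and 81, 71 and 89 in Tyk2KO (log2 fold change -1.24, SE 0.17, adjusted p = 0.0116, or 0.0621 without Tyk2KO replicate 2), the only called gene of 16 chemokines of its list. C3, the central complement component, had 1150, 1294 and 1266 counts against 522, 487 and 798 (60.7 ± 5.47 against 28.4 ± 7.74 CPM, SD, n = 3 each; log2 fold change -1.09, SE 0.17, adjusted p = 0.0204), and the call ended without Tyk2wt replicate 3, Tyk2KO replicate 1 or Tyk2KO replicate 2, with adjusted p up to 0.0848. C2 was the other called gene of 21 complement genes, and it is on the interferon gamma list.

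Smooth muscle genes were lower in Tyk2KO tumors. Of 30 tested, 7 were called lower and 0 higher, 29 had a log2 fold change below 0, and the median was -0.59. Without overlap between the genotypes, 16 were lower and 0 higher, against 14.4% and 14.1% of all genes. Des, the muscle intermediate filament desmin, had 817, 339 and 1167 counts in Tyk2wt and 75, 63 and 222 in Tyk2KO. Its level was 37.5 ± 19.4 CPM against 5.65 ± 4.12 CPM (SD, n = 3 each), a log2 fold change of -2.73 (SE 0.54, adjusted p = 0.0419). Tyk2wt replicate 2 was the lowest Tyk2wt library and Tyk2KO replicate 3 the highest Tyk2KO library, and yet the groups stayed apart. Cnn1, the contractile regulator calponin, had 494, 289 and 629 counts against 53, 57 and 156 (log2 fold change -2.45, SE 0.42, adjusted p = 0.0265). Actg2, the smooth muscle gamma actin of the gut wall, had 1024, 516 and 1242 against 204, 277 and 435 (log2 fold change -1.64, SE 0.34, adjusted p = 0.0478). The same libraries were lowest and highest for these genes, again without overlap. Tagln, another actin-binding protein of smooth muscle, had 1962, 1095 and 2063 counts against 640, 669 and 909 (log2 fold change -1.25, adjusted p = 0.0297). Of the 7 calls, 1, 6 and 1 were kept without Tyk2wt replicates 1, 2 and 3, and 1, 0 and 5 without Tyk2KO replicates 1, 2 and 3. Synpo2, a Z-disc and actin-bundling protein (328, 231 and 391 counts against 128, 117 and 151, log2 fold change -1.31, adjusted p = 0.0141), lost its call only without Tyk2KO replicate 2 (adjusted p = 0.0713).

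Genes of other cells of the gut wall were mostly uncalled. Summed smooth muscle transcripts were 1835 to 2195 CPM in Tyk2wt and 1583 to 1685 CPM in Tyk2KO. Collagen genes (20 tested, median 0.24) and genes of pericytes (8 tested, median 0.29) and interstitial cells of Cajal (4 tested, median 0.06) had 0 calls by edgeR and by DESeq2 (3, 1 and 0 had an unadjusted edgeR p under 0.05), and the summed fibroblast level was 1373 to 1763 CPM in Tyk2wt and 1211 to 2195 CPM in Tyk2KO. The exception among 20 fibroblast genes was Dpt, dermatopontin of the extracellular matrix, with 419, 507 and 604 counts against 195, 193 and 188 (25.0 ± 4.49 against 9.09 ± 0.340 CPM, SD, n = 3 each; log2 fold change -1.46, SE 0.14, adjusted p = 0.00265). The Tyk2KO libraries lay between 188 and 195 counts, and Dpt was called in all 6 reduced fits. Of 23 endothelial genes, Lyve1, a receptor of lymphatic vessels, was called lower (184, 216 and 280 counts against 93, 125 and 132, log2 fold change -1.004, adjusted p = 0.0465, up to 0.163 without 1 library), and Aplnr was called higher. Vip, a gene of enteric neurons, was called lower too, and the part of the amount of gut wall per tumor in these values was not tested.

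**Figure D3:**
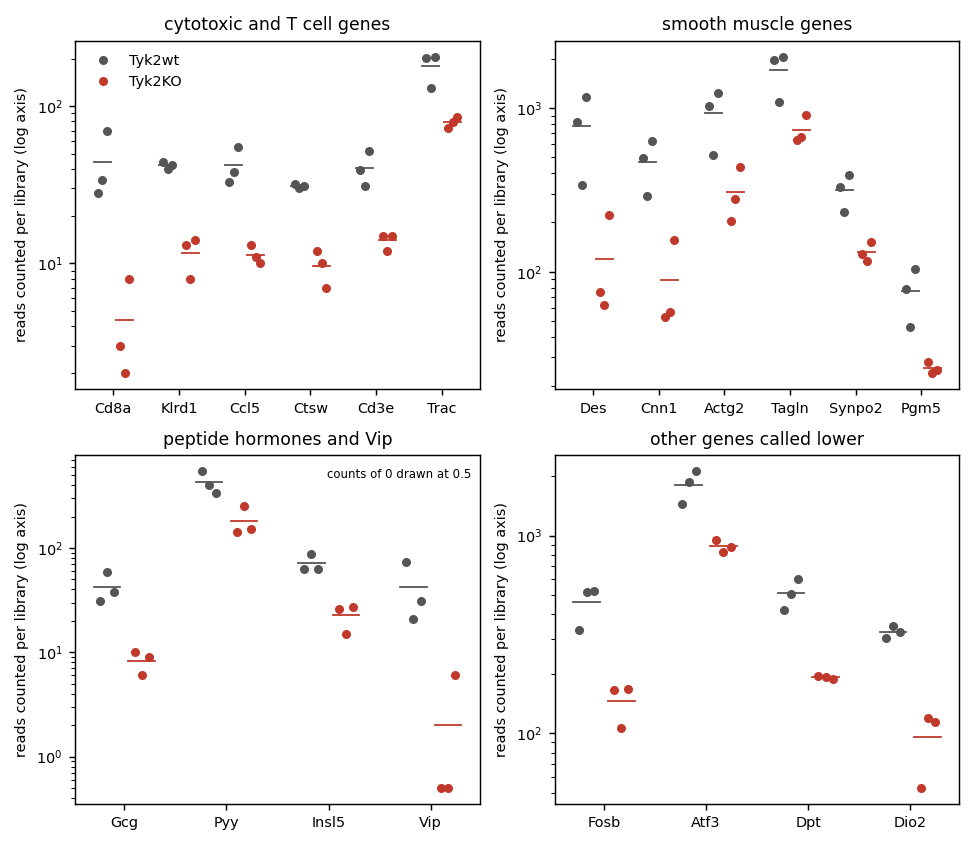
Reads counted per library (vertical axes, log scale) for selected called genes in 4 panels. Grey points are the 3 Tyk2wt and red points the 3 Tyk2KO libraries, short lines are means of counts, and counts of 0 are drawn at 0.5. The groups are apart for every gene shown, with Des spanning 339 to 1167 counts in Tyk2wt and 63 to 222 in Tyk2KO.

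Genes of gut hormones were lower in Tyk2KO than in Tyk2wt tumors. Of 13 tested enteroendocrine genes, 3 were called lower and 0 higher, and the median was -0.49. Only 13 of the 25 listed genes passed the filter on low counts. Gcg, and Vip of the enteric neuron list, passed it only through their Tyk2wt counts, so this count and median are descriptions. Gcg, whose product is processed to glucagon-like peptides in the colon, had 31, 59 and 38 counts in Tyk2wt and 10, 6 and 9 in Tyk2KO (2.11 ± 0.803 against 0.392 ± 0.0871 CPM, SD, n = 3 each; log2 fold change -2.40, SE 0.37, adjusted p = 0.0186). Insl5, a peptide of colonic L cells, had 63, 87 and 63 against 26, 15 and 27 (log2 fold change -1.70, SE 0.28, adjusted p = 0.0243). Pyy, peptide YY of the same cells, had 544, 400 and 334 against 141, 251 and 153 (log2 fold change -1.27, SE 0.26, adjusted p = 0.0483). The groups were apart for all 3, and the neighbouring gene Ppy, pancreatic polypeptide, had 33, 36 and 28 counts against 16, 8 and 13 (log2 fold change -1.44, adjusted p = 0.0478, a call that ended in every reduced fit). Of the 3 calls, 2, 2 and 0 were kept without Tyk2wt replicates 1, 2 and 3, and 0, 1 and 2 without Tyk2KO replicates 1, 2 and 3. The summed level of the list overlapped (114 to 138 CPM in Tyk2wt, 99.2 to 131 CPM in Tyk2KO), and factors that specify these cells, among them Neurog3 and Neurod1, were too low to be tested. Vip, vasoactive intestinal peptide of enteric neurons, had 74, 21 and 31 counts against 0, 0 and 6 (log2 fold change -4.35, SE 0.89, adjusted p = 0.0465, up to 0.155 without Tyk2wt replicate 1 or 3 or Tyk2KO replicate 1 or 2), while the other 9 tested genes of enteric neurons and glia were not called. Scaled together with the Tyk2-intact Tyk2fl tumors, the Tyk2KO libraries lay inside the Tyk2fl ranges for Gcg, Insl5, Pyy and Vip. Gcg was at 0.298 to 0.463 CPM in Tyk2KO and 0 to 2.47 CPM in Tyk2fl. In the same order, Insl5 was at 0.745 to 1.27 and 0.0939 to 10.5 CPM, and Pyy at 6.52 to 12.5 and 1.44 to 25.0 CPM. Vip was at 0 to 0.282 and 0 to 8.76 CPM.

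Epithelial programs did not pass the threshold. Of 26 genes of differentiated colonocytes, 19 goblet cell genes, 28 Wnt target and stem cell genes, 24 regenerative genes and 34 genes of DNA replication and mitosis, 0 were called by edgeR or DESeq2, while 3, 9, 14, 11 and 12 had an unadjusted edgeR p under 0.05. By the same unadjusted p, 2112 of all 16179 genes were lower and 1569 higher. The log2 fold changes of the proliferation genes were below 0 in 33 of 34 cases (median -0.16), with a summed level of 3007 to 3304 CPM in Tyk2wt and 2653 to 2750 CPM in Tyk2KO. Mki67, the proliferation marker Ki-67, had 7554, 5829 and 6869 counts against 4307, 3584 and 5635 (log2 fold change -0.63, SE 0.15, adjusted p = 0.0649). Wnt target and stem cell genes had a log2 fold change above 0 in 23 of 28 cases (median 0.17), with Sox9, a transcription factor of crypt progenitors, at 4284, 3804 and 4104 counts against 5716, 5262 and 5387 (log2 fold change 0.37, SE 0.06, adjusted p = 0.0193), below the 2-fold minimum. Those of the regenerative genes were below 0 in 21 of 24 cases (median -0.29), with Ly6a, also known as Sca-1, at 12966, 14897 and 17751 counts against 10752, 9232 and 10243 (log2 fold change -0.65, SE 0.11, adjusted p = 0.029). For the 3 genes with values here the groups were apart and the changes were under 2-fold, so none was called.

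The lower side also held immediate early genes and single genes of diverse function. Fosb, an AP-1 subunit that is induced within minutes of stimulation, had 335, 519 and 527 counts in Tyk2wt and 166, 106 and 167 in Tyk2KO (22.6 ± 5.70 against 6.89 ± 1.47 CPM, SD, n = 3 each; log2 fold change -1.71, SE 0.23, adjusted p = 0.0104), and it was called in every reduced fit. Atf3, a stress-induced transcription factor, had 1443, 1869 and 2115 against 948, 823 and 877 (log2 fold change -1.09, SE 0.13, adjusted p = 0.00728), and its change fell under 2-fold without Tyk2wt replicate 3. All Tyk2KO libraries were below all Tyk2wt libraries for both, while the other 19 of 21 immediate early genes were not called (list median -0.22). Dio2, the deiodinase that activates thyroid hormone, had 304, 349 and 326 counts against 53, 119 and 114 (log2 fold change -1.82, SE 0.28, adjusted p = 0.018, or 0.0686 without Tyk2wt replicate 3). Igfbp2, which binds insulin-like growth factors, had 32, 13 and 58 against 1, 3 and 1 (log2 fold change -4.30, SE 0.72, adjusted p = 0.0253). For both the groups were apart. Dsg4, a desmosomal cadherin, had 118, 103 and 124 against 36, 42 and 48 (log2 fold change -1.50, SE 0.18, adjusted p = 0.00727) and was called in every reduced fit. Slc10a2, the ileal sodium-dependent bile acid transporter, had 524, 597 and 622 counts against 252, 229 and 362 (log2 fold change -1.10, SE 0.17, adjusted p = 0.0172), and the lincRNA Gm42047 had 559, 445 and 1264 against 121, 53 and 59 (log2 fold change -3.33, SE 0.45, adjusted p = 0.0114). For these 3 genes as well, the highest Tyk2KO library was below the lowest Tyk2wt library. The call of Igfbp2 ended without Tyk2wt replicate 3 or any Tyk2KO replicate, with adjusted p up to 0.0864, that of Slc10a2 without Tyk2wt replicate 3 or Tyk2KO replicate 1 or 2 (0.0771) and that of Gm42047 without Tyk2KO replicate 2 (0.058).

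Hoxb genes were higher in Tyk2KO tumors, most of all in the middle of the cluster. The Hoxb genes encode homeodomain transcription factors that lie in 1 row on chromosome 11 and mark position along the body and gut axis. Hoxb5 (chr11:96303336-96306121, plus strand) had 14, 8 and 31 counts in Tyk2wt and 68, 73 and 78 in Tyk2KO (0.856 ± 0.562 against 3.46 ± 0.281 CPM, SD, n = 3 each; log2 fold change 1.998, SE 0.39, adjusted p = 0.0409). Hoxb4, 12146 bases away, had 32, 36 and 57 against 105, 100 and 100 (2.04 ± 0.622 against 4.81 ± 0.113 CPM, SD, n = 3 each; log2 fold change 1.24, SE 0.23, adjusted p = 0.0359). Both were called, and the Tyk2KO libraries of each were close to one another and above every Tyk2wt library. In the Tyk2-intact Tyk2fl tumors, scaled together with these libraries, Hoxb4 was at 1.95 to 8.77 CPM (median 2.93). Hoxb5 was at 0.710 to 4.31 CPM (median 0.864) there. The Tyk2KO libraries, at 4.70 to 4.97 and 3.15 to 3.67 CPM on that scale, lay inside these ranges.

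Around them, Hoxb3 had 22, 12 and 55 counts against 95, 155 and 128 (log2 fold change 2.05, adjusted p = 0.0591), and Hoxb6 had 15, 8 and 64 against 128, 172 and 145 (log2 fold change 2.32, adjusted p = 0.0736). Hoxb7 had 12, 15 and 46 against 65, 98 and 69 (log2 fold change 1.63, adjusted p = 0.0973), and Hoxb8 had 24, 30 and 35 against 56, 58 and 60 (log2 fold change 0.91, adjusted p = 0.068). These 4 genes were not called, although their groups were apart. Toward the distal end, Hoxb9 had 1035, 982 and 1008 against 1349, 1195 and 1337 (log2 fold change 0.31, adjusted p = 0.0388, under the 2-fold minimum), and Hoxb13, the gene of the hindgut, had 4982, 4690 and 4885 against 5541, 4845 and 5223 (log2 fold change 0.05, adjusted p = 0.656), overlapping between the genotypes as did Hoxb2 at 18, 5 and 9 against 8, 20 and 12.

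Tyk2wt replicate 3 was the highest Tyk2wt library for Hoxb3 to Hoxb8. Of 9 tested Hoxb genes 2 were called by edgeR and 4 by DESeq2, all 9 had a log2 fold change above 0, and the median was 1.24, against 0.24 for 11 Hoxa genes and 0.14 for 6 Hoxd genes, of which 0 were called by edgeR or DESeq2 (6 and 0 had an unadjusted edgeR p under 0.05). Hoxb4 lost its call without Tyk2wt replicate 1 or 2 or any Tyk2KO replicate (adjusted p up to 0.134), and Hoxb5 without Tyk2wt replicate 1 or any Tyk2KO replicate (up to 0.139). Of the 12 tested colon position genes outside the Hox clusters 0 were called by edgeR or DESeq2 (2 had an unadjusted edgeR p under 0.05), with a median of 0.06.

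**Figure D4:**
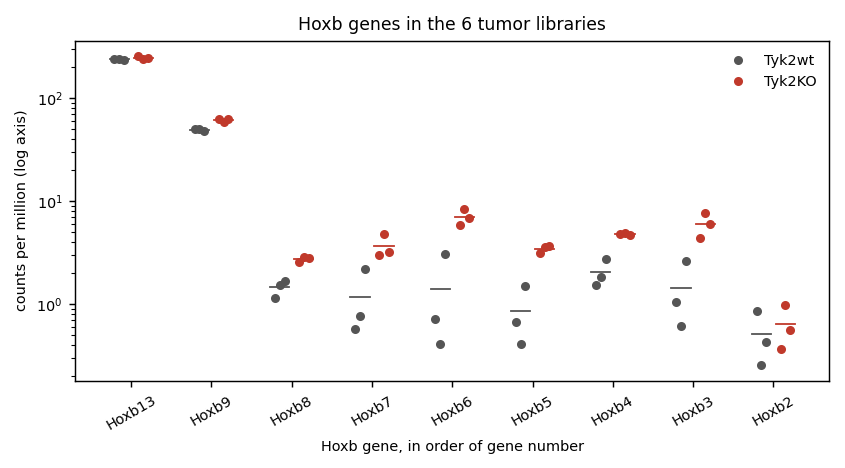
CPM (vertical axis, log scale) of the 9 tested Hoxb genes in order of gene number (horizontal axis). Grey points are Tyk2wt and red points Tyk2KO libraries, 3 each, and short lines are means. Hoxb13 and Hoxb2 overlap between the genotypes, and the 7 genes between them do not.

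Of the other genes called higher, several are protein coding. Aplnr, the apelin receptor of sprouting endothelium, had 77, 78 and 62 counts in Tyk2wt and 140, 260 and 292 in Tyk2KO (3.55 ± 0.523 against 10.96 ± 3.93 CPM, SD, n = 3 each; log2 fold change 1.62, SE 0.29, adjusted p = 0.0297). It was the only called higher gene of 23 endothelial genes, whose median was 0.18 and whose summed level was 742 to 914 CPM in Tyk2wt and 839 to 947 CPM in Tyk2KO. Rec8, a cohesin of meiosis, had 516, 268 and 437 against 818, 809 and 1051 (log2 fold change 1.09, adjusted p = 0.0346). Pde11a, a cyclic nucleotide phosphodiesterase, had 20, 15 and 13 against 51, 43 and 50 (log2 fold change 1.53, SE 0.24, adjusted p = 0.0209), and was the only called gene of 17 phosphodiesterases. Abcc6, a transporter of the ABC family, had 44, 36 and 53 against 101, 92 and 101 (log2 fold change 1.09, adjusted p = 0.0255), and Agmat, annotated as an agmatinase, had 28, 26 and 30 against 63, 62 and 55 (log2 fold change 1.05, adjusted p = 0.0358). The groups were apart for all 5 genes. Each of these calls ended without Tyk2wt replicate 3 or Tyk2KO replicate 2 or 3, with adjusted p-values of up to 0.129, 0.119, 0.0883, 0.108 and 0.15. Scaled together with the Tyk2-intact Tyk2fl tumors, the Tyk2KO libraries overlapped them for each of these genes but Abcc6. Aplnr was at 6.48 to 13.7 CPM in Tyk2KO and 5.74 to 12.1 CPM in Tyk2fl. Pde11a was at 2.13 to 2.36 and 1.42 to 4.16 CPM, and Abcc6 at 4.57 to 4.75 and 0.928 to 3.96 CPM.

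Among the genes called higher were also transcripts without a known product, 2 of them with the largest log2 fold changes of the 15. The lincRNA Gm42031 (chr8:85125872-85132289, minus strand) had 1, 2 and 1 counts in Tyk2wt and 359, 463 and 191 in Tyk2KO, 0.0661 ± 0.0313 against 16.1 ± 6.89 CPM (SD, n = 3 each; adjusted p = 0.000846). Cbx3-ps2, a processed pseudogene on chromosome 13, had 0 counts in each Tyk2wt library and 25, 20 and 27 in Tyk2KO, at least 7.70-fold higher than the floor of 3 counts per library (adjusted p = 0.00645). Both were called in every reduced fit, and reads of a processed pseudogene can be hard to tell from those of its parent gene. The lincRNAs AC158975.2 and AC102496.1 had 34, 80 and 37 against 240, 284 and 304 counts and 64, 233 and 114 against 832, 622 and 952 counts (log2 fold changes 2.39 and 2.48, adjusted p = 0.0114 and 0.0218). All 4 transcripts were higher in each Tyk2KO library than in any Tyk2wt library, and AC102496.1 lost its call without Tyk2wt replicate 3 or any Tyk2KO replicate (adjusted p up to 0.0999). In the other experiment of the series, scaled together with these libraries, Gm42031 was at 3.31 to 37.9 CPM in Tyk2fl and 20.5 to 24.7 CPM in Tyk2DIEC, and Cbx3-ps2 at 0.407 to 2.31 CPM and 0.920 to 2.01 CPM. The Tyk2wt libraries were thus the ones that stood apart for both transcripts, at 0.0479 to 0.103 CPM and at 0.

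The same genes were then followed in tumors without Tyk2 in the epithelium only, where a different set of libraries was compared (Tyk2DIEC minus Tyk2fl). That comparison shares no library with the germline one. Its groups also differ in depth (19129696 to 20334948 total counts in Tyk2DIEC, 29777763 to 35427965 in Tyk2fl) and in sex-linked transcripts, with 40656 to 45446 Xist counts in 3 of the 7 Tyk2fl libraries and 2 to 10 in Tyk2DIEC, so that these and genotype cannot be told apart there. In it 26.1% of the 16179 genes had an adjusted p under 0.05. Of the 77 outside genes lower in Tyk2KO, 3 passed in the same direction (Dpt, Rgs1 and Cd52) and 11 in the opposite direction, against 12.5% of all genes lower and 13.6% higher. Strc, which encodes stereocilin, had a log2 fold change of -2.01 in the germline comparison and 1.76 in the epithelial one (adjusted p = 0.0185 and 0.0141), and its germline call ended without Tyk2wt replicate 3 or any Tyk2KO replicate (adjusted p up to 0.0908). Pyy was at -1.27 and 2.04 (adjusted p = 0.0483 and 0.00337). Rgs1, in contrast, was at -1.57 and -1.15 (adjusted p = 0.0245 and 0.0241).

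The difference between both changes was tested in 1 fit of the 17 libraries, in which 1374 of 17252 genes (7.96%) had an adjusted p under 0.05. Of the 92 outside genes, 36 passed, 30 lower and 6 higher in Tyk2KO, although these genes were chosen on one of the values that enter the difference, so the count is a description. With the 3 Tyk2fl libraries that had Y-linked counts as the only epithelial controls, 34 of the 36 passed, and a further 12 of the 92 did, 46 in all. The cytotoxic genes Cd8a and Klrd1 were among them, with differences of -4.17 (adjusted p = 0.00935) and -1.77 (adjusted p = 0.0101), and so was Fosb (-2.16, adjusted p = 0.0174). On the scale shared by the 17 libraries, however, the Tyk2wt libraries stood above all others for these 3 genes, the Tyk2-intact Tyk2fl tumors included. Cd8a was at 1.34 to 3.37 CPM in Tyk2wt, 0.0993 to 0.376 CPM in Tyk2KO, 0.0594 to 1.12 CPM in Tyk2fl and 0.578 to 1.10 CPM in Tyk2DIEC. Klrd1 was at 2.02 to 2.11, 0.397 to 0.658, 0.594 to 1.16 and 0.610 to 1.05 CPM in the same order, and Fosb at 16.1 to 26.6, 5.26 to 7.85, 3.40 to 10.6 and 7.36 to 11.7 CPM. The germline and epithelial experiments had separate controls, and differences between the experiments and effects of genotype cannot be told apart in these levels. Of the smooth muscle genes 0 of 30 passed edgeR's test of the difference (8 had an unadjusted p under 0.05), Des with -3.59 (adjusted p = 0.275) and Cnn1 with -3.14 (adjusted p = 0.252), beside epithelial log2 fold changes of 0.86 and 0.69. On the shared scale Des was at 17.4 to 56.2 CPM in Tyk2wt and 3.13 to 10.4 CPM in Tyk2KO. It was at 2.45 to 93.5 CPM (median 4.72) in Tyk2fl and 5.11 to 226 CPM (median 6.63) in Tyk2DIEC. Cnn1 was at 14.8 to 30.3, 2.45 to 7.33, 2.82 to 60.7 (median 8.17) and 4.22 to 133 CPM (median 5.98) in the same order. For both genes the ranges of Tyk2KO and the Tyk2-intact Tyk2fl tumors overlapped. Of the 9 Hoxb genes 0 passed (6 had an unadjusted p under 0.05), Hoxb5 with 2.29 (adjusted p = 0.129) and Hoxb4 with 1.79 (adjusted p = 0.093), but with the reduced Tyk2fl group both passed, at 2.94 (adjusted p = 0.0285) and 2.33 (adjusted p = 0.0235). The difference for Dpt was -0.82 (adjusted p = 0.107), and neither it nor any of the 7 called smooth muscle genes passed with the reduced group. These misses do not show that the changes were alike in both experiments.

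**Figure D5:**
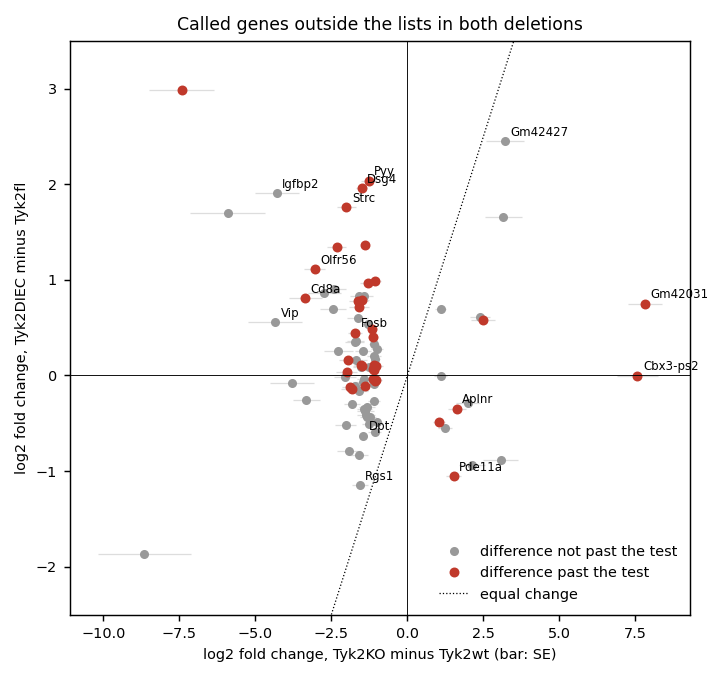
Log2 fold changes of the 92 genes called outside the interferon and MHC lists in the germline comparison (horizontal axis, horizontal bars are SE) and in the epithelial comparison (vertical axis). Red points passed the test of the difference (36 genes), grey points did not, and the dotted line marks equal change. Gm42427 and Rgs1 lie close to that line, while Pyy, Dsg4 and Strc lie above 0 on the vertical axis and below 0 on the horizontal one.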

How the data were processed

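RNA of AOM/DSS-induced colon tumors was sequenced as single-end reads after poly(A) selection with a directional library kit. The authors aligned reads with STAR 2.6.1a in its 2-pass mode (build GRCm38, also named mm10, per the labels) with Gencode annotation, and the gene-level read counts that STAR gave were deposited without normalization, with no pooling of libraries by computation. Which strand setting the deposited counts used is not given in the sources used here. The tables held 55421 genes. Symbols and positions came from a neighbouring Gencode release: 55240 identifiers matched ignoring their version, and the 181 without a match held 0.00196% of the counts.

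Groups followed the genotype labels. The 6 germline libraries were analysed with edgeR 4.0.16 (R 4.3.3): genes were kept by filterByExpr at its minimum count of 10 and minimum total of 15, TMM factors were computed, and a quasi-likelihood F test was run on 16179 genes, with p-values adjusted by Benjamini-Hochberg. A gene was called at an adjusted p under 0.05 and over 2-fold. Adjusted p-values in the report are from this test unless another tool is named, and a reduced fit is the same test without 1 library. The difference between deletions was tested in 1 edgeR fit of 17 libraries. DESeq2 1.42.0, limma 3.58.1 voom, RLE and upper quartile scaling, other filters and fold limits, a fit of all libraries, a replicate block and leaving out each library were tried as alternatives. Scripts were tested on simulated data, and tables and figures were made with Python 3.11.15, pandas 2.3.3 and matplotlib 3.10.9. CPM are counts per 1000000 of the TMM-scaled library size. Total counts, 19789347 at the least, limit the precision of genes with few counts. Since the labels do not say whether libraries came from separate animals, the spread behind the p-values may be technical.

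The libraries, gene lists and genes were chosen with earlier results of these data known. The 52 lists outside the interferon kind overlap with one another, and some members are interferon targets. Named genes were Tyk2, every gene called higher, the 30 protein-coding genes called lower outside the interferon and MHC lists with the largest fold, the leading members of each list, all Hoxb genes, the genes the study names outside the interferon response, and the 10 outside genes with the smallest adjusted p for the difference between deletions. A few genes that meet the rule are not reported here, although they stay in all tests and counts. Genes named beyond that rule were chosen after their values were seen: AC151990.1, Gm42047, Gzmb, Ppy, Ptprc, Slc10a2, Cd52, Gimap3, Klra2, Rasgrp1, Slc28a2, Cd4, Foxp3, Prf1, Nkg7, Ifng, Neurod1, Neurog3, Adipoq, Xist, the leading immunoglobulin segments and the neighbours of named genes. Motifs were searched in RefSeq promoter windows (GRCm38.p6) on both strands, and overlapping matches of both motifs were not removed. The CArG box, bound by serum response factor in muscle genes, was found in 1.33% of all windows, in 12.5% (4 of 32) of the windows of smooth muscle genes tested (Filip1, Ldb3 and Myl9) and in 0 of the 5 windows of those called.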

Additional observations from a re-analysis of the deposited data

Results flagged for a closer look

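Of the genes taken up by the naming rule and reported here, 23 were called in the germline comparison and passed the test of the difference between the germline and the epithelial deletion in the fit of 17 libraries, by edgeR at an adjusted p under 0.05. The differences that follow are log2 fold change in Tyk2KO minus log2 fold change in Tyk2DIEC. These genes were chosen on the germline change, which is itself part of the difference, and 7.96% of all genes passed the same test. Among lymphocyte and leukocyte genes the differences were Cd8a (-4.17), Klrd1 (-1.77), Klrb1b (-1.69) and Cd72 (-1.20). Among genes on or near interferon genes they were Olfr56 (-4.16), 9330175E14Rik (-3.67) and Casp12 (-1.65). Calhm6 (-1.62) and Gm1966 (-2.39) are genes with ISRE letters in their promoter windows, that of Gm1966 not at the start of the span counted here. Stress-response and signalling genes followed with Fosb (-2.16), Atf3 (-1.19) and Kcnb2 (-2.06). The gut hormone gene Pyy (-3.30) and Strc (-3.76), Dsg4 (-3.45), 2210407C18Rik (-2.76) and Serpina10 (-2.30) were also more negative in the germline comparison. On the shared scale the ranges of both control groups, Tyk2wt and Tyk2fl, overlapped for Klrb1b, Cd72, Kcnb2, Pyy, Strc and Serpina10. For the other genes with negative differences every Tyk2wt library stood above every Tyk2fl library. Olfr56 was at 5.90 to 13.8 against 1.11 to 4.07 CPM and Dsg4 at 5.29 to 5.97 against 0.654 to 3.23 CPM. Experiment and genotype cannot be told apart in these levels. Positive differences were found for Gm42031 (7.10), Cbx3-ps2 (7.89), Pde11a (2.58), Aplnr (1.98), AC102496.1 (1.90) and Agmat (1.54). With Tyk2fl replicates 1 to 4, which lacked most Y-linked counts, left out, 22 of the 23 had an adjusted p under 0.05, the exception being Atf3. The Tyk2fl libraries were also deeper than the others, at 29777763 to 35427965 counts, and the part of depth in these differences was not tested.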

How the results depend on the processing

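The 77 lower and 15 higher genes outside the interferon and MHC lists depended on the processing. DESeq2 called 134 and 27, no low-count filter 174 and 48, a stricter filter 38 and 8, no fold minimum 180 and 108, and a test against 1.5-fold 9 and 3. Over all genes, the 195 lower calls became 314 without a low-count filter, 345 without a fold minimum and 82 with the test against 1.5-fold, and the higher calls were the same as outside the lists, since no list gene was called higher. Leaving out 1 library gave 84 (without Tyk2KO replicate 2) to 230 (without Tyk2wt replicate 2) lower calls over all genes, 10 to 110 outside the lists, and 6 (without Tyk2KO replicate 3) to 22 (without Tyk2KO replicate 1) higher calls. The 1374 genes that differed between deletions became 2401 with the Tyk2fl libraries that had Y-linked counts as the only epithelial controls, an alternative chosen after seeing the data. No result reversed in any alternative run. The numbers of the replicates did not pair the samples (correlations of deviations -0.0893, -0.111 and -0.00531 for same-numbered samples), and with the replicate block 44 lower and 7 higher genes were called outside the lists and 148 lower over all genes. Of the 151 named genes, 32 were no longer called with the block, 6 by DESeq2, 12 by limma voom, 37 in the fit of all 17 libraries, and 11 to 51 without 1 library. The 151 include genes that the main fit did not call, such as Tyk2 and Pax5. Those could not lose a call, so the share lost among called genes is larger. Only 3 libraries per genotype and low counts of lymphocyte and hormone genes limit what could be called.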
